A study of Mus musculus with 17 samples.

Results

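The response of LYVE1+CX3CR1+ synovial macrophages to circulating immune complexes (IC) was measured by bulk RNA-seq in 3 libraries taken 8 h after an intravenous injection of IC and in 3 control libraries. These 6 libraries were selected by their labels from a series of 17, which also holds MHCII+CD11c- and MHCII+CD11c+ macrophages of the synovium, and 15272 of the 22859 genes in the count table passed a low-count filter. Every library, controls included, came from adult mice labelled as Fcgr2b knockouts, and both sexes were used. The IC were ovalbumin bound by rabbit anti-ovalbumin serum, and controls are labelled as healthy or control without a stated mock injection. The labels give no time of day at collection for either group. Dissected synovium was digested with collagenase, tissue of several mice was pooled for a sample, and cells were sorted as MHCII-Ly6C-LYVE1+CX3CR1+ macrophages, so a library describes a sorted pool and not 1 animal. Nothing in the labels ties replicate numbers to shared mice, and p-values therefore measure the spread between pools. That spread was estimated over all 17 libraries in 6 groups and not from the LYVE1+CX3CR1+ pools alone.

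Macrophages of this subset form the lining of the joint and are known for their tight contacts, for clearance of dead cells and for expression of scavenger and complement receptors. IC engage the receptors for the Fc part of immunoglobulin G, of which Fcgr2b encodes the inhibitory member and Fcgr1, Fcgr3 and Fcgr4 the activating members, which signal through the common gamma chain and the kinase Syk. Glucocorticoids act through the nuclear receptor Nr3c1, which induces a small set of genes in nearly every cell type, and several of these, such as Per1, also belong to the circadian clock, in which Arntl (also called Bmal1) and its partner CLOCK activate the Per genes and Tef through E-boxes.

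Control libraries 1 to 3 were sequenced to 6179255, 3669763 and 7248939 counts and IC libraries 1 to 3 to 3348248, 3091011 and 2301913. With each library drawn down to the smallest total, 17389, 16390 and 17369 genes had a count in controls against 13470, 13857 and 11547 after IC, so the IC libraries were both shallower and narrower, and correlations of log2 CPM between IC libraries (0.855 to 0.890) lay below those between controls (0.952 to 0.977). A group with at most 3 counts of a gene in each library is called at the floor, which is a mean of 0.567 CPM in controls and 1.02 CPM after IC. CPM are counts relative to the library size, scaled by TMM, changes are fitted log2 fold changes of IC minus control with their SE, and a gene is called at an adjusted p under 0.05 of edgeR's quasi-likelihood test. Values are given for control libraries 1, 2 and 3 and then for IC libraries 1, 2 and 3. Fcgr2b, labelled as knocked out, read 111, 84.9 and 116 CPM in controls and 164, 145 and 69.3 after IC. Counts per gene do not say which exons these reads cover, and its reads could be shared with Fcgr3.

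The genes that define the sort were present in all 6 libraries. Lyve1, the hyaluronan receptor, read 1727, 1801 and 2338 CPM in controls and 3469, 3272 and 4116 after IC. Vsig4, the complement receptor CRIg, read 1118, 1209 and 1188 and 1581, 2016 and 1799 CPM. Cx3cr1, the fractalkine receptor, read 435, 333 and 528 and 244, 254 and 304 CPM. The 3 IC libraries lay above all controls for Lyve1 and Vsig4 and below them for Cx3cr1, yet none of the changes passed the test (0.89 ± 0.81, 0.62 ± 1.44 and −0.69 ± 0.70 log2 units, adjusted p = 0.701, 0.916 and 0.739). A fit on the 6 libraries alone called the first 2 of these higher (adjusted p = 0.0161 and 0.0437). Over the 15 markers of lining and LYVE1+ macrophages, all of which passed the filter, none was called, 12 fitted changes were above 0 with a median of 0.46, and the summed level was 6291 to 7395 CPM in controls and 8854 to 10235 after IC. The markers of the labelled subset were thus present in both groups.

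Among 15272 genes, 147 were called (0.963%), 23 of them higher after IC (0.151%) and 124 lower (0.812%). Before adjustment, 2159 genes had a p under 0.05, 429 higher and 1730 lower. The 3 IC libraries lay apart from the 3 controls for each of the 147, which compares with 4.95% of all genes with every IC library above and 16.7% with every IC library below. The calls were made on the same libraries, so this separation, here and for single genes below, adds no support to them. Called higher genes had a median control level of 134 CPM and a median change of 1.14 log2 units, and all 23 encode proteins. Called lower genes were weaker, with a median control level of 27.9 CPM, and in 41 of the 124 the IC group was at the floor. The fitted change of these 41 depends on the prior count of the fit and is no bound, and the other 83 had a median change of -1.40. The split between higher and lower calls depended on the model. The fit on the 6 libraries alone called 37 genes higher and 26 lower, of which 17 and 18 were among the 23 and 124, voom called 22 and 14, RLE scaling 29 and 81, equal depth 31 and 82, and a filter of at least 30 counts in at least 3 of the 6 libraries 25 and 37. Without control library 1, 2 or 3 the total was 45, 62 or 43 genes, and without IC library 3 it was 52.

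Higher and lower calls were also spread differently over the levels of expression, although the share called was largest at 100 CPM and above for both. No gene under 1 CPM was called among 1827, and 2 genes rose and 56 fell among the 5097 between 1 and 10 CPM, where 41 of the 56 had the IC group at the floor. Between 10 and 100 CPM 5 rose and 37 fell of 6405. At 100 CPM and above 16 rose and 31 fell of 1943, which is 0.823% and 1.60% of that class. The higher calls were therefore concentrated among abundant transcripts, where the median SE was 0.199 log2 units against 1.09 between 1 and 10 CPM. Ranked by level per exon length over the 6 libraries, Wfdc17 stood at rank 71 of all genes with a known length, Ccl9 at 83, Hspa1b at 96 and Cd14 at 104, while Fkbp5 stood at 4386.

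**Figure D1:**
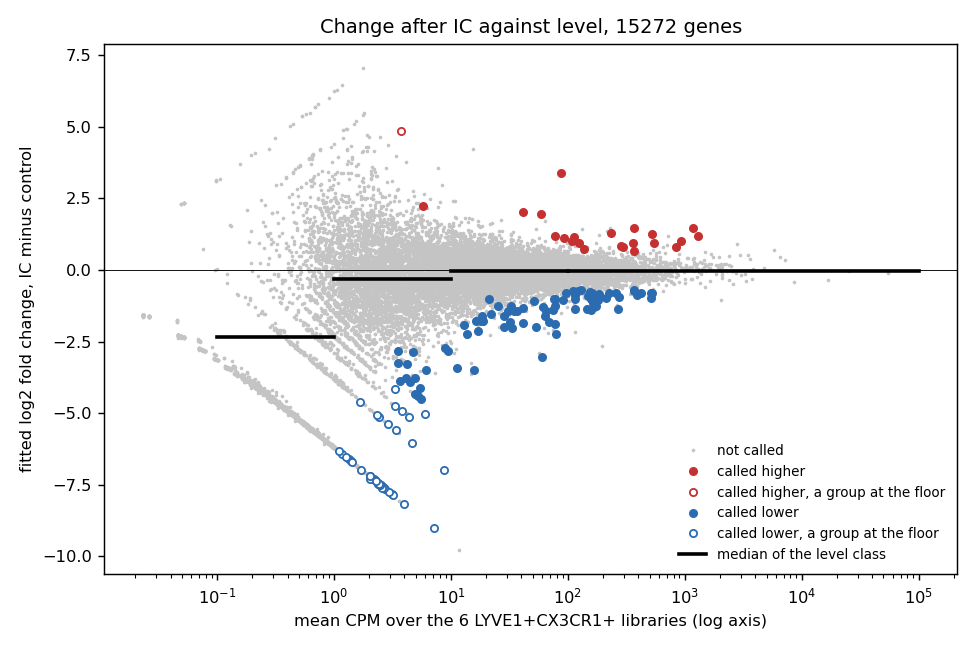
Fitted log2 fold change (IC minus control, y axis) against the mean CPM of the 6 LYVE1+CX3CR1+ libraries (x axis, log scale) for 15272 genes. Red and blue points are the 23 genes called higher and the 124 called lower, open points those with a group at the floor, and black bars the medians of 4 classes of level. Most red points lie above 100 CPM, and the open points lie between 1 and 10 CPM.

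Genes known to be induced by glucocorticoids held the largest change among the genes called higher outside the floor. Fkbp5, an immunophilin that holds the receptor in its low-affinity state, read 11.3, 24.3 and 10.6 CPM in controls and 163, 130.3 and 184 after IC, a rise of 10.5-fold (3.40 ± 0.36, adjusted p = 8.48e-05). Tsc22d3, which encodes GILZ, an inhibitor of NF-kappaB and AP-1 (chromosome X, 140539528 to 140600659, minus strand), read 215, 247 and 275 and 494, 433 and 485 CPM (0.94 ± 0.20, adjusted p = 0.0251). Map3k6, a kinase of the ASK family, read 16.4, 16.5 and 15.6 and 55.3, 83.7 and 60.2 CPM (2.04 ± 0.26, adjusted p = 0.00016). In these genes the lowest IC library stood above the highest control, and control library 2 was the highest control for Fkbp5. Per1 was the fourth member called (0.85 ± 0.18, adjusted p = 0.0237). Of the 21 members of the list that passed the filter, 4 rose and none fell, against 0.151% and 0.812% of all genes tested. These shares apply to every list, and the lists were chosen with earlier results of these data known. Fitted changes were above 0 in 17 members, with a median of 0.24 against -0.14 over all genes tested. With genes at the floor set to their bound, these medians were 0.24 and -0.08.

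The remaining 17 members did not pass the test. Sgk1, a kinase that regulates sodium transport, read 126, 112 and 128 and 377, 257 and 373 CPM, with every IC library above every control (1.46 ± 0.65, adjusted p = 0.341, and 0.00393 in the fit on the 6 libraries alone). Dusp1, the phosphatase of p38 and JNK, read 1497, 1285 and 1672 and 2073, 1705 and 2296 CPM (adjusted p = 0.16), and the metallothionein Mt1 read 86.9, 90.8 and 152 and 334, 140.1 and 299.5 CPM (adjusted p = 0.0805). Zbtb16 overlapped between groups, at 6.30, 1.89 and 6.42 and 13.2, 4.09 and 30.3 CPM (adjusted p = 0.209). Nr3c1, the receptor itself, read 259, 233 and 307 and 181, 137 and 196 CPM, lower in all 3 IC libraries without passing the test (−0.64 ± 0.19, adjusted p = 0.109). The calls of Fkbp5 and Map3k6 held under all 19 alternative settings, whereas those of Tsc22d3 and Per1 held under 13 of 19. That of Tsc22d3 was lost without control library 1, 2 or 3 or IC library 1 or 3. That of Per1 was lost without control library 1 or 3 or IC library 1 or 3.

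Circadian genes moved in opposite directions. Neither a time of day nor a mock injection is stated. Their part in these genes and in the glucocorticoid-induced genes cannot be told apart from that of IC and was not tested. Arntl, the activator, read 129, 133 and 127 CPM in controls and 23.4, 35.9 and 23.2 after IC (−2.23 ± 0.32, adjusted p = 0.000652). Per1, a repressor of the clock (chromosome 11, 69095217 to 69109960, plus strand), read 169.6, 248 and 190.1 and 416, 314 and 361 CPM, and Per2 (chromosome 1, 91415982 to 91459324, minus strand) read 67.6, 41.1 and 64.5 and 148, 132 and 98.7 CPM (1.13 ± 0.27, adjusted p = 0.0406). Tef, a PAR bZIP factor driven by the clock (chromosome 15, 81802421 to 81826863, plus strand), read 50.4, 37.3 and 53.03 and 88.1, 99.5 and 135 CPM (1.19 ± 0.27, adjusted p = 0.0282). Every IC library thus lay below every control for Arntl and above every control for Per1, Per2 and Tef. Of 19 members that passed the filter, 3 rose and 1 fell, against 0.151% and 0.812% of all genes tested. Wee1, a mitotic inhibitor whose gene the clock is known to control and which was not on the list (chromosome 7, 110122046 to 110143286, plus strand), rose from 23.6, 21.1 and 27.1 to 85.1, 94.1 and 100.4 CPM (1.96 ± 0.29, adjusted p = 0.0011), a rise of 3.88-fold. Per3, Cry1 and Cry2, further repressors of the clock, overlapped between groups (1.36 ± 0.47, 0.79 ± 0.31 and 0.80 ± 0.31, adjusted p = 0.181, 0.237 and 0.222). The calls of Arntl and Wee1 held under all 19 alternatives, those of Per1 and Tef under 13 and that of Per2 under 12. Those of Per1 and Per2 were lost in the fit on the 6 libraries alone. That of Per2 was also lost without control library 1, 2 or 3 or IC library 1 or 2. The call of Tef was lost without control library 1, 2 or 3 or IC library 3.

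The proximal promoters of the genes at the centre of these groups are shown to locate the elements named above. Windows of 300 bases around the annotated start were taken from RefSeq on GRCm38.p6 and searched on both strands for the E-box CACGTG, the ROR element TAGGTCA through which Arntl is known to be regulated, and the core of a glucocorticoid response element, ACANNNTGT. These motifs occur in 7.15%, 2.61% and 6.85% of all 32851 promoter windows. Capitals mark the E-box in the first 3 sequences, the ROR element in that of Arntl and the glucocorticoid core in that of Map3k6. The windows of Per1 and Arntl that hold the match are each 1 of 2 annotated for the gene, and both windows of Tef hold an E-box.
Per1 (chr11:69098699-69098998, plus strand): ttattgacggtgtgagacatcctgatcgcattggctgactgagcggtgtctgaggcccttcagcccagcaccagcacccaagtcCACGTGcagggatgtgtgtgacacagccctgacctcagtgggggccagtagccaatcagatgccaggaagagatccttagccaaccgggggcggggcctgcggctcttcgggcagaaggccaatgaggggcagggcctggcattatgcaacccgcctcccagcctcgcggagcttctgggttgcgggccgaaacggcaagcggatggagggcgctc
Tef (chr15:81802423-81802722, plus strand): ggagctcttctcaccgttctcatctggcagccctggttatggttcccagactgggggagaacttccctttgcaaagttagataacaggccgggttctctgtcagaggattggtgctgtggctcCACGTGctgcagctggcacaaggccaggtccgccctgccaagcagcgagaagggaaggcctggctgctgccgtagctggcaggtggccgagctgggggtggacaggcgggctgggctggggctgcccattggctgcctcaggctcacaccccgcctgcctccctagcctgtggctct
Fkbp5 (chr17:28486100-28486399, minus strand): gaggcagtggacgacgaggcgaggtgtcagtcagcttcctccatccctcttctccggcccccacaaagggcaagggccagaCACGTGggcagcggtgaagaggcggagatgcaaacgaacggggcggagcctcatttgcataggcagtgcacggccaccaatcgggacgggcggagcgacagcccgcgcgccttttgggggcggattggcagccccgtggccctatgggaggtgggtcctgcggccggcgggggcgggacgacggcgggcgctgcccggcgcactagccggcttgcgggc
Arntl (chr7:113207261-113207560, plus strand): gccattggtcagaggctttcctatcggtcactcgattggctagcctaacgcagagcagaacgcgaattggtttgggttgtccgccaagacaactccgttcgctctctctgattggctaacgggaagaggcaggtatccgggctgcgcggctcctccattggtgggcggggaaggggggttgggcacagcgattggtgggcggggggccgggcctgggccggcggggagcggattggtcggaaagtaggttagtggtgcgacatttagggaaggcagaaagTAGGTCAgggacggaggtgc
Map3k6 (chr4:133240568-133240867, plus strand): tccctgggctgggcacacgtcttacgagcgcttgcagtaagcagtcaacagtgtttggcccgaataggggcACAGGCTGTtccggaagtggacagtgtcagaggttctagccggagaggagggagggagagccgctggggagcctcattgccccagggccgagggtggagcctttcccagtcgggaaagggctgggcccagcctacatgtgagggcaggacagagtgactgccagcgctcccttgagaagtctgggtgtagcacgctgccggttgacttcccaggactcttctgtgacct
The E-box starts 166 bases before the annotated start in Per1, 127 in Tef and 169 in Fkbp5, the ROR element 30 bases after it in Arntl, and the glucocorticoid core 179 bases before it in Map3k6. No window of Fkbp5 or Per1 holds the glucocorticoid core, and none of the 3 windows of Tsc22d3 holds a match to any of these 3 motifs. Per2 and Wee1 had no window in the set searched and are not shown. A match is a description of the sequence and does not say whether a factor was bound.

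**Figure D2:**
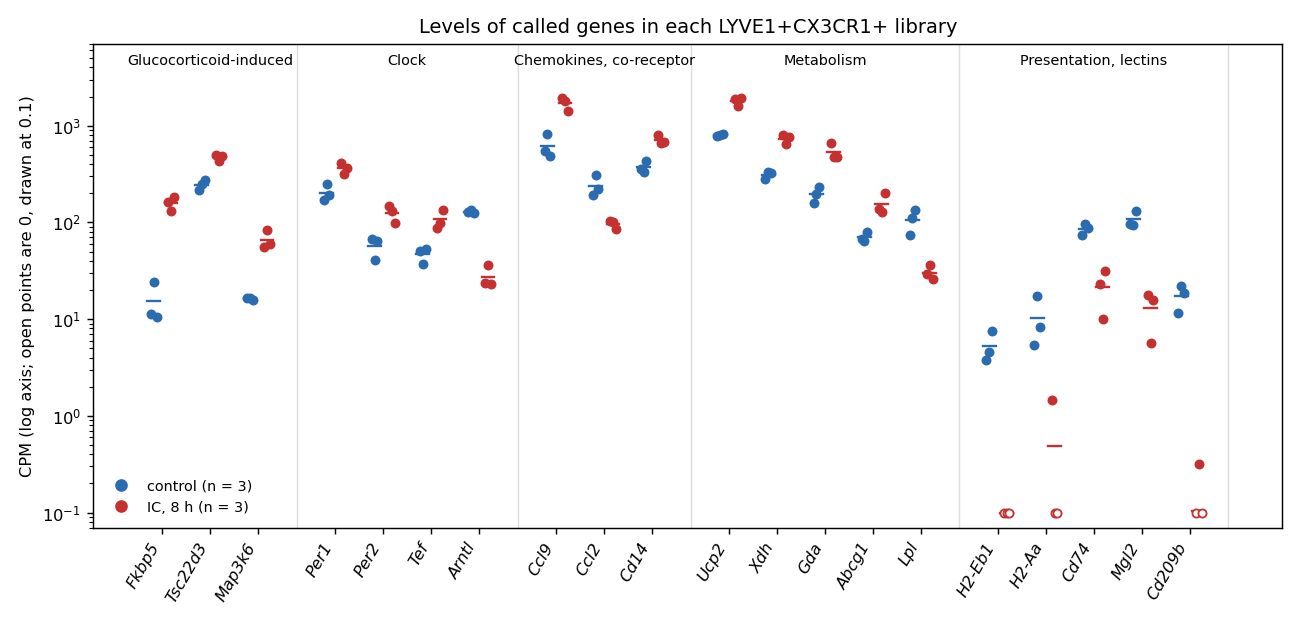
CPM (y axis, log scale) of 20 called genes in each LYVE1+CX3CR1+ library, blue for the 3 controls and red for the 3 libraries taken 8 h after IC, with bars at the group means and open points for libraries at 0. The colours do not overlap for any gene shown, and H2-Eb1 is at 0 in all 3 IC libraries.

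The inducible heat shock genes Hspa1a and Hspa1b and the factor Cebpb rose. Hspa1b, which encodes a cytosolic HSP70, read 710, 596 and 555 CPM in controls and 1168, 1369 and 1191 after IC (1.0 ± 0.20, adjusted p = 0.0188). Its near-identical copy Hspa1a read 661, 571 and 613 and 1051, 1177 and 1017 CPM (0.81 ± 0.18, adjusted p = 0.0307), and reads of the 2 genes may be split between them, so they are not separate observations. The call of Hspa1a was lost whenever 1 library was left out and that of Hspa1b without control library 2 or 3. The constitutive HSP70 gene Hspa8 read 2871, 2651 and 2976 and 3900.4, 4229.7 and 4029 CPM, above controls in all 3 IC libraries (0.52 ± 0.15, adjusted p = 0.0907, and 0.0405 in the fit on the 6 libraries alone). Hspa1a and Hspa1b were the 2 called of 16 heat shock genes, against 0.963% of all genes tested. Of the 16, 10 had fitted changes above 0 and 6 below, with a median of 0.13. Cebpb, a factor of myeloid differentiation and of acute phase genes, read 242, 159 and 251 and 390, 344 and 397 CPM (0.79 ± 0.18, adjusted p = 0.0282), a call kept under 11 of 19 alternatives and not in the fit on the 6 libraries alone (adjusted p = 0.0635). Runx3, known as a factor of lymphocytes and of some phagocytes, was covered by 1, 0 and 3 counts in control and 14, 46 and 8 in IC libraries (adjusted p = 0.000405). Its control group was at the floor and IC library 2 carried most of its reads, so no fold is given. Runx1 read 278, 244 and 262 and 186, 198 and 129 CPM (−0.61 ± 0.18, adjusted p = 0.106).

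Few genes of inflammatory signalling were called, and 2 of them encode chemokines. Ccl9, a CC chemokine that attracts cells through CCR1 (chromosome 11, 83572919 to 83578636, minus strand), read 552, 824 and 489.5 CPM in controls and 1921, 1784 and 1406 after IC, a rise of 2.74-fold (1.45 ± 0.24, adjusted p = 0.00436). Ccl2, the main ligand of CCR2 on monocytes (chromosome 11, 82035571 to 82037453, plus strand), fell from 192, 307 and 220.5 to 103, 101 and 86.3 CPM (−1.30 ± 0.22, adjusted p = 0.00332). These 2 were the called members of 25 chemokine genes that passed the filter, against 0.963% of all genes tested. They moved in opposite directions. At an unadjusted p under 0.05, 5 members were higher and 4 lower, and 13 fitted changes were above 0 and 12 below. The summed level of the list was 2687 to 3615 CPM in controls and 4088 to 5438 after IC. Ccl6, a neighbour of Ccl9 in the same cluster, read 384, 538 and 396 and 1068, 1047 and 908 CPM (1.20 ± 0.30, adjusted p = 0.0669, and 0.00724 in the fit on the 6 libraries alone). Cxcl2, a neutrophil attractant, overlapped between groups at 527, 851 and 514 and 1237, 1119 and 775 CPM (adjusted p = 0.361). Cxcl1, another neutrophil attractant, had a fitted change of 1.42 log2 units and was not called. The paper reports that IC raised Cxcl1 more in Fcgr2b-deficient than in wild-type LYVE1+CX3CR1+ macrophages. Wfdc17, a small secreted protein of activated macrophages (chromosome 11, 83703991 to 83706268, plus strand), rose from 152, 162 and 89.4 to 291, 409 and 287 CPM (1.29 ± 0.24, adjusted p = 0.0107).

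Receptors of microbial products changed in both directions. Cd14, the co-receptor of TLR4, read 354, 329 and 434 CPM in controls and 796, 665 and 678 after IC (0.94 ± 0.21, adjusted p = 0.0291). Tlr9, the endosomal receptor of DNA (chromosome 9, 106222598 to 106226883, plus strand), fell from 25.99, 19.7 and 30.3 to 9.65, 6.92 and 5.39 CPM (−1.78 ± 0.37, adjusted p = 0.0197). The other 18 of 20 Toll-like receptor and adaptor genes were not called, and the call of Tlr9 was lost in the fit on the 6 libraries alone (adjusted p = 0.13). Pld4, an endosomal exonuclease that degrades single-stranded nucleic acid, fell from 220, 236 and 278 to 102, 117 and 90.8 CPM (−1.24 ± 0.28, adjusted p = 0.0368), and Siglech fell from 18.7, 15.7 and 27.1 to 0, 1.89 and 4.15 CPM (adjusted p = 0.0225). These calls held under 7 and 12 of 19 alternatives, and that of Pld4 was lost whenever 1 library was left out. Ms4a6c, a membrane protein of the MS4A family, rose from 74.7, 75.7 and 64.7 to 139, 117 and 178 CPM (1.01 ± 0.23, adjusted p = 0.0331), as 1 of 9 members, a call kept under 11 of 19 alternatives. Its relative Ms4a6d read 123, 126 and 116 and 309, 352 and 269 CPM with no overlap (adjusted p = 0.0777, and 0.00374 in the fit on the 6 libraries alone).

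No gene was called in the lists that stand closest to the receptors for IC, against 0.963% of all genes tested. At that share, lists of this length can hold no call without differing from other genes. The same limit applies to the other lists without a call. None of 9 Fc receptor genes and none of 24 genes of Fc receptor signalling passed the test, with medians of 0.28 and −0.12 log2 units. Fcer1g, the common gamma chain, read 254, 332 and 268 CPM in controls and 372, 412 and 469 after IC (0.55 ± 0.18, adjusted p = 0.141). Fcgr3, the low-affinity activating receptor, read 317, 319 and 337 and 434, 388 and 376 CPM (0.30 ± 0.16, adjusted p = 0.414), and Syk read 439.7, 456 and 502 and 355, 343 and 347 CPM (−0.42 ± 0.18, adjusted p = 0.262). The 3 IC libraries lay above controls for Fcer1g and Fcgr3 and below them for Syk, each by less than the test required. Inpp5d, the SHIP1 phosphatase that acts downstream of the inhibitory receptor, read 537, 571 and 581 and 629, 665 and 677 CPM (0.22 ± 0.17, adjusted p = 0.597).

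Lists of inflammatory output also held no call, against 0.963% of all genes tested. None of 20 cytokines and antagonists, 20 genes of the NF-kappaB pathway, 25 type I interferon-stimulated genes and 19 complement genes was called by this test, and their medians were −0.24, −0.03, 0.01 and −0.04 log2 units. Il1b overlapped between groups, at 12.4, 66.8 and 14.7 and 35.7, 45.6 and 11.6 CPM, with its highest value in control library 2 (0.04 ± 0.73, adjusted p = 1). Tnfaip3, the A20 inhibitor of NF-kappaB, read 432, 475 and 513 and 977, 751 and 755 CPM, above controls in all 3 IC libraries (0.81 ± 0.31, adjusted p = 0.242, and 0.0235 in the fit on the 6 libraries alone). C1qb, a subunit of C1q, read 1709, 1549 and 1743 and 2371, 2028 and 2411 CPM (0.45 ± 0.34, adjusted p = 0.616). Tgtp2, an interferon-inducible GTPase, was the called gene of 15 in its family and fell from 8.50, 6.22 and 5.86 to 1.17, 0 and 0 CPM (adjusted p = 0.00241). It was low throughout, and its reads may be shared with Tgtp1. Before adjustment, at a p under 0.05, the 4 lists of inflammatory output held 3 higher and 7 lower members and the 2 Fc receptor lists 3 and 4. Over these 6 lists DESeq2 called 4 genes, with Fgr, Cxcl10 and Nfkbie higher and Il16 lower, and voom called none.

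**Figure D3:**
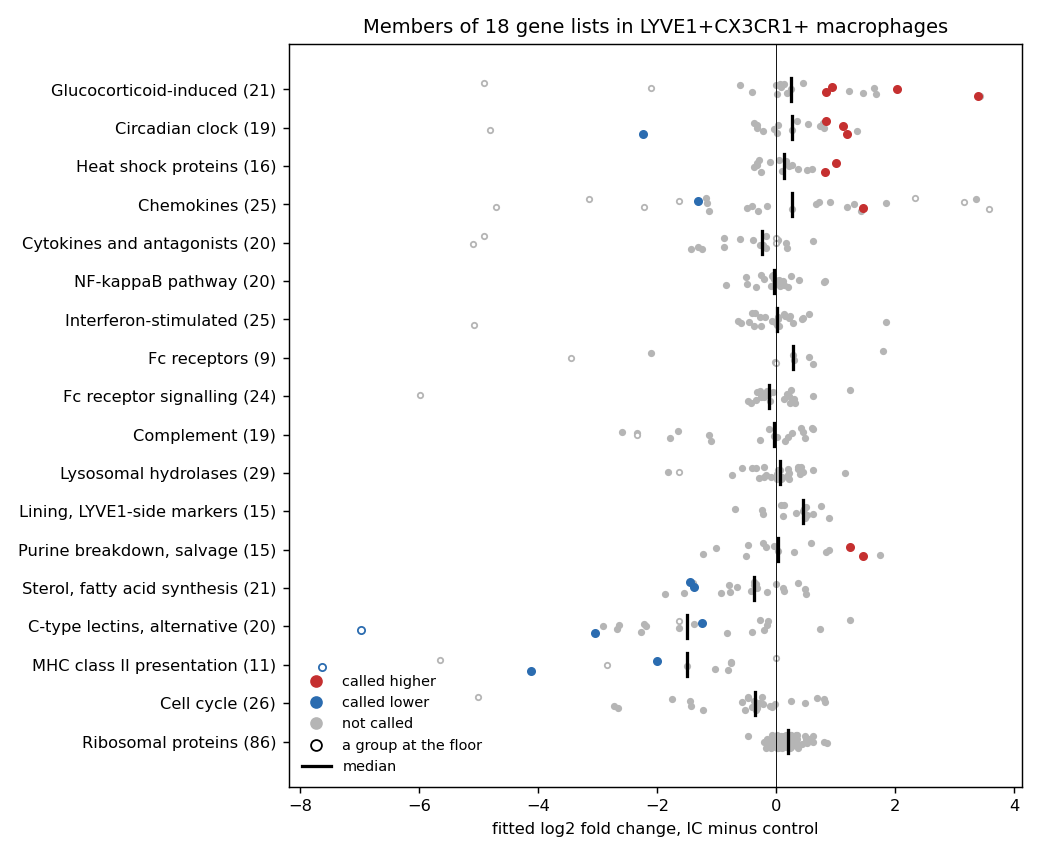
Fitted log2 fold change (IC minus control, x axis) of each member of 18 gene lists that passed the filter, with the number of members in brackets, red for called higher, blue for called lower, grey for not called, open where a group was at the floor, and a black bar at each median. Members of the MHC class II and lectin lists lie mostly left of 0, and members of the Fc receptor, cytokine and interferon lists lie on either side of 0 with no coloured point. Over all genes tested, 0.963% were called.

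The purine breakdown genes Gda and Xdh and the mitochondrial uncoupling gene Ucp2 rose. Gda, guanine deaminase, read 158, 198 and 232 CPM in controls and 660.3, 477 and 480 after IC (1.46 ± 0.20, adjusted p = 0.000387). Xdh, xanthine dehydrogenase, which makes uric acid from the product of Gda (chromosome 17, 73883895 to 73950196, minus strand), read 282, 333 and 323 and 795, 649.9 and 767 CPM (1.24 ± 0.25, adjusted p = 0.0206). The 2 called of 15 purine genes, against 0.963% of all genes tested, were these consecutive enzymes, and both rose. The list as a whole did not, with 8 fitted changes above 0, 7 below and a median of 0.03. Impdh1 and Impdh2, which act in synthesis of guanine nucleotides, were above controls in all IC libraries without passing the test (0.83 ± 0.28 and 0.58 ± 0.22, adjusted p = 0.172 and 0.215). Ucp2, an inner-membrane carrier that lowers mitochondrial production of reactive oxygen, read 778, 801 and 821 and 1881, 1590 and 1922 CPM, a rise of 2.25-fold (1.17 ± 0.15, adjusted p = 0.00016), and was the called gene of 23 uncoupling and antioxidant genes. Fth1, the ferritin heavy chain, read 1979.5, 2016 and 1956 and 2792, 2811 and 2685 CPM, and Ncf1, a subunit of the phagocyte oxidase, read 390.3, 371 and 467 and 698, 580.4 and 724 CPM. Both were above controls in every IC library and were called in the fit on the 6 libraries alone (adjusted p = 0.0496 and 0.0405) but not over all groups (0.118 and 0.302). Calls of Gda and Ucp2 held under all 19 alternatives and that of Xdh under 14.

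Lipid genes changed in both directions. Abcg1, which exports cholesterol to lipoproteins (chromosome 17, 31057675 to 31117988, plus strand), rose from 67.9, 64.9 and 79.96 to 138, 128 and 202 CPM (1.14 ± 0.20, adjusted p = 0.00671). Lpl, lipoprotein lipase (chromosome 8, 68880491 to 68907448, plus strand), fell from 73.4, 112 and 133 to 29.3, 35.9 and 25.7 CPM (−1.81 ± 0.35, adjusted p = 0.0252). In the sterol list 15 of 21 genes had fitted changes below 0 with a median of −0.37. Hmgcs1, the synthase that precedes HMG-CoA reductase (chromosome 13, 119690379 to 119708260, plus strand), fell from 46.1, 38.6 and 50.4 to 19.9, 18.9 and 10.4 CPM (−1.45 ± 0.32, adjusted p = 0.0252), and Cyp51, lanosterol demethylase, which was not on the list, fell from 56.1, 44.9 and 59.9 to 14.6, 19.5 and 26.1 CPM (−1.43 ± 0.30, adjusted p = 0.0225). The 3 IC libraries lay below the controls for each of these, and the calls of Hmgcs1 and Cyp51 were lost in the fit on the 6 libraries alone (adjusted p = 0.114 and 0.0945).

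Other sterol genes were lower in every IC library without passing the test. Srebf2, the factor that drives this pathway, read 219, 167 and 239.7 and 115, 118 and 128 CPM (−0.80 ± 0.21, adjusted p = 0.0613), Insig1 171, 164 and 166 and 99.2, 127 and 65.5 (adjusted p = 0.0765) and Sqle 33.9, 28.4 and 53.2 and 13.8, 17.3 and 12.9 (adjusted p = 0.0817). The sterol regulatory element TCACCCCAC was found in the promoter window of Hmgcs1, as in 0.551% of all windows, and not in that of Cyp51. Among other metabolic genes, Slc37a2, a sugar-phosphate antiporter of macrophages, fell from 129, 103 and 135 to 33.1, 35.2 and 31.9 CPM (−1.87 ± 0.26, adjusted p = 0.000452) under this fit and all 19 alternatives, as 1 of 19 transporter genes. Kmo, kynurenine monooxygenase, fell from 7.56, 11.6 and 9.07 to 1.17, 0 and 0 CPM (adjusted p = 0.00413). Irs2, an adaptor of insulin signalling, fell from 271, 293 and 294 to 154, 193 and 149 CPM (−0.79 ± 0.18, adjusted p = 0.0282), a call kept under 7 of 19 alternatives and not in the fit on the 6 libraries alone (adjusted p = 0.0686). Sik1, a salt-inducible kinase, rose from 75.4, 91.9 and 90.4 to 169.7, 135 and 184 CPM (0.92 ± 0.17, adjusted p = 0.00926). None of 24 genes of glycolysis and hypoxia was called by edgeR, DESeq2 or voom (1 higher at an unadjusted p under 0.05), with 17 fitted changes above 0.

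Of the genes of MHC class II presentation, 3 fell, from low levels. H2-Eb1, the beta chain of I-E, was covered by 24, 17 and 54 counts in control libraries and by 0 in all 3 IC libraries, which is at least 5.19-fold lower when set against the mean floor of 3 counts per IC library (adjusted p = 5.85e-06). H2-Aa, the alpha chain of I-A, fell from 5.35, 17.3 and 8.37 CPM to 1.46, 0 and 0 (adjusted p = 0.0121). Cd74, the invariant chain, fell from 73.5, 97.03 and 87.6 to 23.1, 10.1 and 31.5 CPM (−2.01 ± 0.29, adjusted p = 0.00258). All 3 genes were thus lower in each IC library, and the calls of H2-Eb1 and H2-Aa, but not that of Cd74, were lost in the fit on the 6 libraries alone (adjusted p = 0.165, 0.215 and 0.0496). The cells were gated as MHCII-, so these transcripts were scarce in controls too. H2-Ab1, the beta chain of I-A, overlapped between groups at 19.4, 36.8 and 21.9 and 24.6, 9.76 and 10.8 CPM (−0.76 ± 0.30, adjusted p = 0.245), and Ciita, the transactivator of the family, overlapped at 1.42, 1.35 and 2.79 and 0, 1.89 and 0 CPM (adjusted p = 0.396). Of 11 members that passed the filter over all groups, 3 fell and none rose, against 0.812% and 0.151% of all genes tested. The median of −1.50 log2 units became −1.02 with members at the floor set to their bound, against -0.08 over all genes treated likewise. None of 14 genes of MHC class I presentation was called by edgeR, DESeq2 or voom, and none had an unadjusted p under 0.05.

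The promoters of the 2 class II chains that fell hold ATTGG, the inverted CCAAT box, on either strand, as 37.4% of all windows do. It is the core of the element known as the Y-box, and capitals mark each match.
H2-Eb1 (chr17:34305617-34305916, plus strand): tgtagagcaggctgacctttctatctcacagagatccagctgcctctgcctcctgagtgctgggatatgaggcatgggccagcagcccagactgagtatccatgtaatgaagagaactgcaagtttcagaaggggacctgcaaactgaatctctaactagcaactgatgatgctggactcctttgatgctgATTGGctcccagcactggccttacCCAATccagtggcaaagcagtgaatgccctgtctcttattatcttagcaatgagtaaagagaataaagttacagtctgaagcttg
H2-Aa (chr17:34287774-34288073, minus strand): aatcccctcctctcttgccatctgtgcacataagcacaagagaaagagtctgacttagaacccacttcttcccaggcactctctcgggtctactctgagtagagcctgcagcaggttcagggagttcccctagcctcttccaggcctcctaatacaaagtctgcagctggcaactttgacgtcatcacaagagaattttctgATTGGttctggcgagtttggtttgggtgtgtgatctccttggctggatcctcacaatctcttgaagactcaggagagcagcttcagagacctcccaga
In H2-Eb1 a match on the strand shown starts 59 bases before the annotated start, and a match on the opposite strand, read here as CCAAT, starts 35 bases before it. In H2-Aa the match on the strand shown starts 48 bases before the annotated start.

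Called lectin genes were all lower. Mgl2, a galactose-type lectin, fell from 97.3, 94.9 and 130.1 to 17.8, 5.67 and 15.8 CPM (−3.04 ± 0.36, adjusted p = 0.000452), a call kept under 18 of 19 alternatives. Cd209b, the SIGN-R1 lectin (chromosome 8, 3917655 to 3926844, minus strand), was covered by 74, 82 and 133 counts in control and 0, 1 and 0 in IC libraries (adjusted p = 0.0121), and Clec4a1 fell from 38.6, 42.2 and 55.96 to 22.5, 17 and 17.8 CPM (−1.25 ± 0.30, adjusted p = 0.0422). The call of Clec4a1 held under 5 of 19 alternatives and was lost in the fit on the 6 libraries alone (adjusted p = 0.132) and whenever 1 library was left out. Of 20 lectin and alternative activation genes, 3 fell, against 0.812% of all genes tested. In 18 the fitted change was below 0, and the median was −1.50, or −1.38 with members at the floor set to their bound. Clec10a, a close relative of Mgl2, read 121, 74.9 and 139 and 13.5, 7.24 and 53.1 CPM (adjusted p = 0.209). Retnla, the resistin-like protein of alternatively activated macrophages, read 197, 517 and 293 and 70.2, 63.3 and 24.1 CPM (−2.67 ± 0.56, adjusted p = 0.0505, and 0.0237 in the fit on the 6 libraries alone). Abundant lectins and scavenger receptors of resident macrophages overlapped between groups, as Mrc1 at 2125, 1745 and 2907 and 2006, 1439.6 and 2179.9 CPM and Cd163 at 1166, 1170 and 1295 and 1468, 1033 and 1357 CPM (adjusted p = 0.613 and 0.92).

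Summed markers of neighbouring cell types changed in both directions. The 8 markers of MHCII+ synovial macrophages, several of them named above, summed to 520.2 to 843 CPM in controls and 97.3 to 155 after IC. Of the 8, 4 were called lower, against 0.812% of all genes tested. Markers of dendritic cells summed to 105 to 110 and 48.3 to 80.1 CPM with none of 9 called, and Irf4 carried most of that sum. Markers of B cells summed to 87.6 to 115 and 8.19 to 53.9 CPM with none of 7 called, carried by Ighm at 94.8, 87.6 and 114 and 8.19, 12.6 and 53.9 CPM (adjusted p = 0.155), while Pax5 and Igkc were at 0 in all 6 libraries and Cd79b in all 3 IC libraries. In a bulk sample, fewer cells of a type and less RNA per cell cannot be told apart, and the part of these markers in the result was not tested. Markers of fibroblasts summed to 76.1 to 108 CPM in controls and 117 to 199.5 after IC, and those of endothelial cells to 3.78 to 6.42 and 1.46 to 41.5, with the highest value of both in IC library 2. Neutrophil markers summed to 37.8 to 91.5 and 12.6 to 32.8 CPM. Monocyte markers, the largest of these sums, read 7084 to 9085 CPM in controls and 8806 to 12207 after IC, with none of 10 called.

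Genes of prostanoid synthesis and of immediate early transcription fell in part. Ptgs1, cyclooxygenase 1, fell from 9.76, 3.78 and 9.63 to 0, 1.57 and 0 CPM (−3.77 ± 0.76, adjusted p = 0.0183), as 1 of 19 pain and prostaglandin genes, and Tbxas1, thromboxane synthase, fell from 244, 221 and 251 to 125, 157 and 114 CPM (−0.85 ± 0.19, adjusted p = 0.0291). Egr2 and Egr3, zinc finger factors induced by growth signals, fell from 157, 314 and 214 to 75.2, 93.5 and 87.9 CPM and from 71.97, 136 and 75.9 to 25.7, 39.03 and 40.7 CPM (−1.41 ± 0.26 and −1.43 ± 0.30, adjusted p = 0.0093 and 0.0225). Control library 2 was the highest for both, and every IC library lay below the lowest control. They were the 2 called of 24 immediate early genes, against 0.963% of all genes tested. In the fit on the 6 libraries alone Egr2 was called (adjusted p = 0.0463) and Egr3, Ptgs1 and Tbxas1 were not (0.102, 0.316 and 0.065), and the call of Tbxas1 held under 8 of 19 alternatives. Fos, the most abundant AP-1 gene here, read 3101, 2869 and 3438 and 3870.3, 3531 and 4914 CPM (0.39 ± 0.16, adjusted p = 0.262).

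The called lower genes included 5 with roles in mitosis or replication. Kif23, a kinesin of cytokinesis, fell from 38.9, 49.7 and 46.6 to 11.99, 5.35 and 17.01 CPM (−1.99 ± 0.35, adjusted p = 0.00671). Bub1b, a kinase of the spindle checkpoint, was covered by 40, 53 and 49 counts in control and 1, 0 and 0 in IC libraries (adjusted p = 0.00221). Aurkb, the Aurora B kinase, had 37, 21 and 54 and 0, 0 and 0 counts, at least 6.21-fold lower against the mean floor of 3 counts per IC library (adjusted p = 0.00509). The replication factor Cdc6 and the centromere protein Cenpn were also called lower from 1.57, 4.05 and 1.95 and 3.15, 3.24 and 2.09 CPM to 0 in every IC library. These 5 genes were singled out after their values were seen and are not members of the cell cycle list, of whose 26 genes none was called (2 higher and 4 lower at an unadjusted p under 0.05, with Ccna2 and Ccnb1 lower by DESeq2 and none by voom) and 21 had fitted changes below 0 with a median of −0.36. Mki67 read 95.4, 195 and 104 and 92.2, 90.96 and 91.7 CPM (adjusted p = 0.538), and Top2a read 25.04, 75.4 and 34.2 and 22.2, 17 and 9.13 CPM (adjusted p = 0.366). The calls of Cdc6 and Cenpn held under 5 and 3 of the 17 alternatives that could be fitted and were lost whenever 1 library was left out. Those of Kif23, Bub1b and Aurkb were lost in the fit on the 6 libraries alone (adjusted p = 0.0793, 0.0945 and 0.132) and with voom, and held under the other alternatives that could be fitted.

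Lower calls at moderate and high levels included many long genes. Kmt2d, a histone H3K4 methyltransferase, fell from 458, 432 and 465 to 298, 248 and 297 CPM (−0.69 ± 0.15, adjusted p = 0.0271), its relative Kmt2c from 275, 272 and 297 to 141, 182 and 99.97 CPM (−1.0 ± 0.21, adjusted p = 0.0189) and the chromatin remodeller Atrx from 191, 205 and 233 to 124, 122 and 63.5 CPM (−1.02 ± 0.22, adjusted p = 0.0252). Syne2, a giant linker of nucleus and cytoskeleton, fell from 164, 139 and 158 to 76.1, 90.6 and 109.5 CPM (−0.74 ± 0.18, adjusted p = 0.0484). Among 8348 genes with a mean of at least 10 CPM, the median exon length was 7.37 kb for those called lower, 4.34 kb for those called higher and 4.87 kb for all. No gene shorter than 1 kb was called lower among 230, and 30 of 1748 with 8 kb or more were (1.72%). The median change fell from 0.15 log2 units at 1 to 2 kb to −0.19 at 8 kb or more, while in MHCII+CD11c- macrophages it went from 0.14 to −0.07 and in MHCII+CD11c+ macrophages from 0.07 to 0.03. Exon length thus moved with these calls. Of the 86 cytosolic ribosomal protein genes, which are short, none was called by edgeR or voom (4 by DESeq2, and 10 higher at an unadjusted p under 0.05), and 72 had fitted changes above 0, with a median of 0.21. With the length trend of each library removed, an alternative chosen after seeing the data, 18 genes were called higher and 105 lower, of which 17 and 94 were among the 23 and 124. Among genes named here, the calls of Kmt2d, Kmt2c, Atrx, Syne2, Tbxas1, Cd14, Cebpb, Hspa1a and Ms4a6c were lost in that fit. The calls of Kmt2d, Kmt2c, Atrx and Syne2 were kept under 6, 11, 11 and 2 of 19 alternatives and were also lost in the fit on the 6 libraries alone (adjusted p = 0.0686, 0.0787, 0.123 and 0.176).

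**Figure D4:**
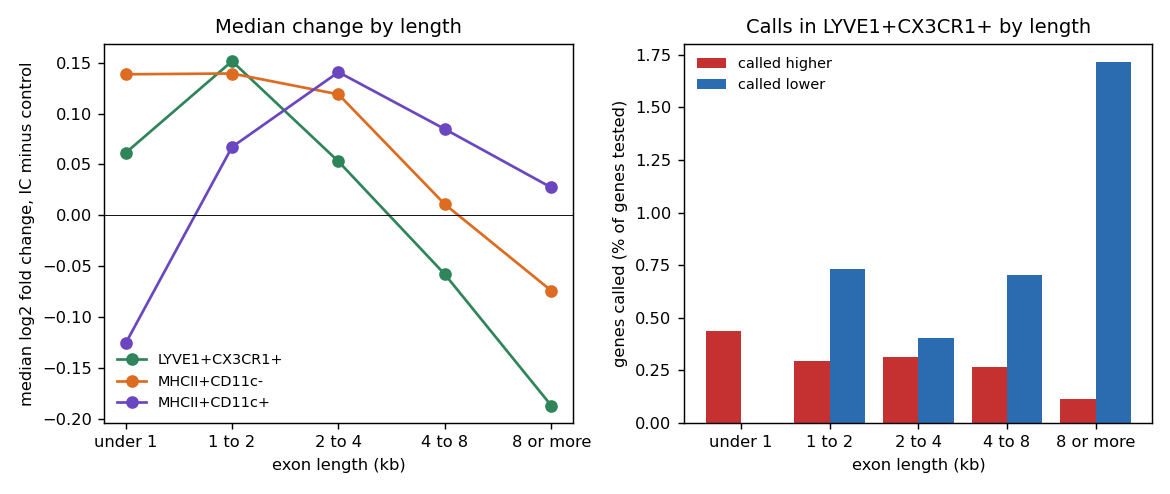
Left, median fitted log2 fold change (IC minus control, y axis) of genes with at least 10 CPM by exon length in kb (x axis) for the 3 macrophage subsets. Right, percentage of genes called higher (red) and lower (blue) in LYVE1+CX3CR1+ macrophages in the same classes of length, where the blue bars reach their highest value at 8 kb or more.

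The same contrast in the other subsets of the synovium was set beside these genes. Each subset had its own control and IC libraries (n = 3 and 3 for MHCII+CD11c-, n = 3 and 2 for MHCII+CD11c+), although the labels do not say whether subsets were sorted from the same mice. MHCII+CD11c- macrophages had 83 genes called higher (0.543%) and 24 lower (0.157%), and MHCII+CD11c+ macrophages had 33 higher (0.216%) and none lower by edgeR (229 lower at an unadjusted p under 0.05, and 9 called lower by DESeq2 and 24 by voom). Of the 23 genes called higher in LYVE1+CX3CR1+ macrophages, 16 were also called higher in MHCII+CD11c- macrophages, which is 69.6% of the 23 and 19.3% of the 83. In MHCII+CD11c+ macrophages 3 were (13.04% of the 23 and 9.09% of the 33), namely Fkbp5, Tsc22d3 and Ms4a6c. Of the 124 genes called lower, 5 were also called lower in MHCII+CD11c- macrophages (4.03% of the 124 and 20.8% of the 24), namely Kif23, P3h2, Cmah, Snx29 and Syne2, of which Snx29 and Syne2 kept their calls in LYVE1+CX3CR1+ macrophages under 9 and 2 of 19 alternatives. Fkbp5 changed by 3.61 ± 0.36 and 2.32 ± 0.36 log2 units in the other subsets (adjusted p = 6.32e-05 and 0.00965) and Tsc22d3 by 1.46 ± 0.21 and 1.28 ± 0.22 (adjusted p = 0.000526 and 0.0113).

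A difference between subsets was tested as an interaction. Against MHCII+CD11c- macrophages 4 genes differed in response (0.0262%), and against MHCII+CD11c+ macrophages 5 did (0.0327%). H2-Eb1, Tgtp2 and Runx3 differed in both comparisons (adjusted p = 0.000367, 0.0116 and 0.0416 against the first and 3.47e-05, 0.00738 and 0.023 against the second), and all 3 are genes at or near 0 counts in a LYVE1+CX3CR1+ group. Slc37a2 fell in LYVE1+CX3CR1+ macrophages and had a fitted change of 1.13 ± 0.28 in MHCII+CD11c+ macrophages (adjusted p = 0.134), a difference of −3.0 ± 0.38 log2 units (adjusted p = 0.000359). Map3k6 rose in LYVE1+CX3CR1+ macrophages and had −0.42 ± 0.27 in MHCII+CD11c+ macrophages (adjusted p = 1), a difference of 2.46 ± 0.38 (adjusted p = 0.00547). Sdc4, a heparan sulfate proteoglycan, rose in MHCII+CD11c- macrophages (1.83 ± 0.22, adjusted p = 0.000125) and read 69.6, 107 and 64.5 and 98.01, 80.6 and 70.9 CPM with overlap in LYVE1+CX3CR1+ macrophages (adjusted p = 0.959), a difference of −1.78 ± 0.31 (adjusted p = 0.0291). For genes such as Arntl, Ccl2, Lpl and Mgl2, which were called in LYVE1+CX3CR1+ macrophages and not in the other subsets, the difference did not pass the interaction test, and their response is not shown to be particular to this subset. Ccl9 changed by 2.11 ± 0.24 in MHCII+CD11c- macrophages (adjusted p = 0.000149) and by 0.71 ± 0.26 in MHCII+CD11c+ macrophages (adjusted p = 0.719), and Arntl by −0.79 ± 0.30 and −0.57 ± 0.35 (adjusted p = 0.329 and 1).

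**Figure D5:**
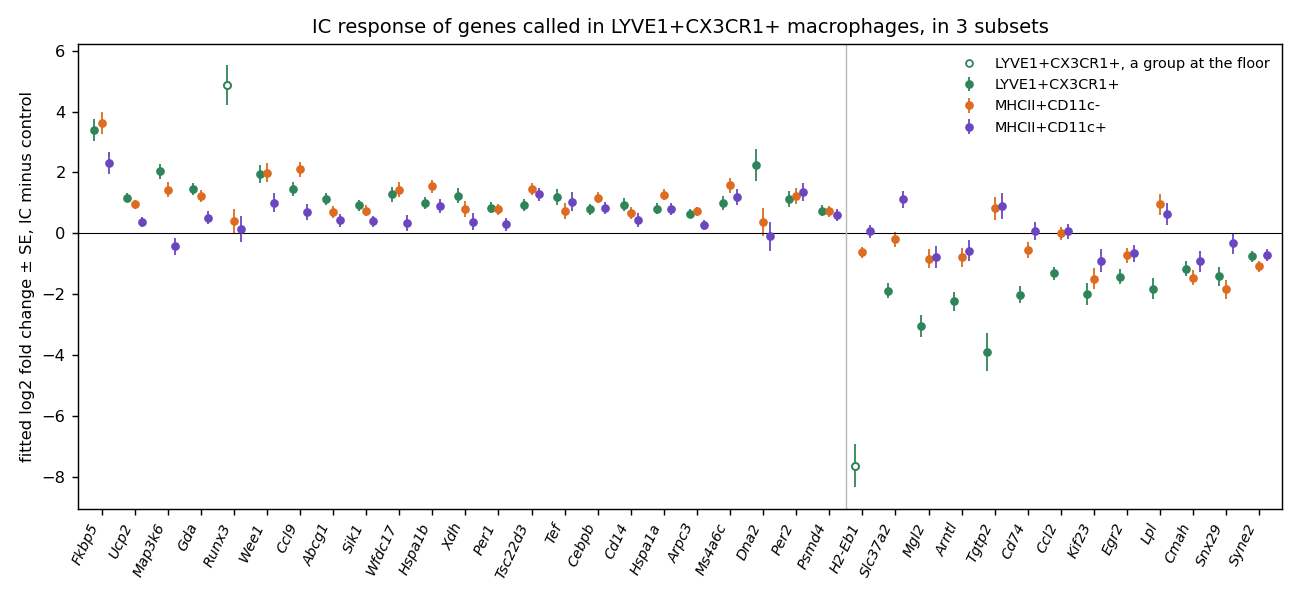
Fitted log2 fold change ± SE (IC minus control, y axis) of the 23 genes called higher (left of the grey line) and of 13 genes called lower in LYVE1+CX3CR1+ macrophages, in the 3 synovial macrophage subsets (green, orange and purple). The open points Runx3 and H2-Eb1 had a group at the floor, so their fitted values are no bounds, and the orange points lie above 0 for all 23 genes on the left.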

How the data were processed

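Macrophages were sorted from the synovium of mice labelled as Fcgr2b knockouts, and stranded total RNA-seq libraries were prepared from 5 ng of RNA by a kit for low input, with paired reads. Per the labels and the study's methods, the authors trimmed reads with Trim Galore, aligned them to mm10 with HISAT2 and counted them with featureCounts. The deposited table holds raw counts of reads for each gene symbol, without normalization by the authors. Versions, annotation, strandedness of counting and the handling of multiply aligned reads are not given in the sources used here, so near-identical or overlapping genes may share reads. The authors also used sva against a batch that they did not name. A further 1 column of the table matched no sample label and was not used.

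Groups and replicate numbers came from the labels. The 3 IC and 3 control LYVE1+CX3CR1+ libraries held between 2301913 and 7248939 counts, and any pair of replicates differed by a chi-square of at least 6.77 per degree of freedom, so none was a copy of another. The filter (filterByExpr, minimum count of 10, 6 groups) and TMM scaling were run with edgeR 4.0.16 in R 4.3.3, and counts were fitted with glmQLFit (robust) in 1 model of 17 libraries with 11 residual degrees of freedom. IC was tested against control, and the response of other subsets by interaction terms, with Benjamini-Hochberg adjustment over 15272 genes and a threshold of 0.05. The script was tested on simulated counts. Each SE belongs to a fitted log2 fold change, and floors cover counting error only. Exon lengths and coordinates are from GENCODE M21 on GRCm38, counted from 1.

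The subset, the gene lists and the tests were chosen with earlier results of these data known. Genes were named by a rule: the 15 called genes of smallest p on each side, called members of each list and up to 3 of its most abundant members, the most abundant and most abundant called genes, the interaction genes, and Fcgr2b with the sort markers. Other genes named here, among them the called genes outside the lists, Per3, Cry1, Cry2, Mt1, Zbtb16, Insig1, Sqle, Il1b, Fgr, Cxcl10, Nfkbie, Il16, Ccna2, Ccnb1, Runx1, Impdh1, Impdh2, Ciita, Mki67, Top2a and those called in the fit on the 6 libraries alone, were chosen after their values were seen. Some genes that the rule names are not reported here. Alternatives were a fit on the 2 groups, RLE size factors, library totals, DESeq2 1.42.0, voom with sample quality weights (limma 3.58.1), other filters, equal depth, centring, surrogate variables (sva 3.50.0), a replicate block, each library left out and, after seeing the data, removal of the length trend.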

Additional observations from a re-analysis of the deposited data

Results flagged for a closer look

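Responses of 6 genes differed between subsets by the interaction test of edgeR's quasi-likelihood fit, over 15272 genes each. Against MHCII+CD11c- macrophages, the response of LYVE1+CX3CR1+ macrophages differed by −7.0 ± 0.82 log2 units in H2-Eb1, by −4.72 ± 0.74 in Tgtp2, by −1.78 ± 0.31 in Sdc4 and by 4.47 ± 0.80 in Runx3. Against MHCII+CD11c+ macrophages, it differed by −7.70 ± 0.79 in H2-Eb1, by −3.0 ± 0.38 in Slc37a2, by 2.46 ± 0.38 in Map3k6, by −4.79 ± 0.76 in Tgtp2 and by 4.71 ± 0.82 in Runx3. The values of H2-Eb1, Tgtp2 and Runx3 rest on groups with between 0 and 4 counts per library in LYVE1+CX3CR1+ macrophages and depend on the prior count of the fit.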

How the results depend on the processing

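The 147 genes called after IC in LYVE1+CX3CR1+ macrophages became 63 when the 6 libraries were fitted alone, 436 with DESeq2, 36 with voom, 62 with at least 30 counts in 3 of 6 libraries, 1558 with surrogate variables and 30 at an adjusted p under 0.01. RLE size factors, library totals, no low-count filter, equal depth, centring and removal of the length trend gave 110 to 136 genes. Leaving out 1 library gave 43 to 170, and 45, 62 and 43 genes without control library 1, 2 or 3. The 4 interactions with MHCII+CD11c- macrophages became 38 with DESeq2, 0 with voom (limma, where 1095 genes had an unadjusted p under 0.05) and 172 with surrogate variables, and 3 to 7 with 1 library left out (7 without IC library 1). The 5 interactions with MHCII+CD11c+ macrophages became 44 with DESeq2 and 155 with surrogate variables, and 5 to 10 with 1 library left out (8 without IC library 1 and 10 without IC library 2). The cause of these shifts was not tested. Some settings use fewer libraries or genes.

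Same-numbered IC and control libraries of LYVE1+CX3CR1+ macrophages did not deviate together (correlations of −0.013, 0.024 and 0.021), so no pairing of IC with control by number was seen. Whether same-numbered libraries of different subsets deviated together was not tested. With the replicate block 138 genes were called in LYVE1+CX3CR1+ macrophages, and the interactions were 5 against MHCII+CD11c- and 23 against MHCII+CD11c+ macrophages. Each of the 23 higher and 124 lower genes kept its sign under all 19 alternatives that could be fitted, 6 higher and 2 lower genes (Fkbp5, Ucp2, Map3k6, Gda, Wee1 and Ccl9, and Slc37a2 and Arntl) were called under every one, and 8 and 19 under each of the 6 settings that leave out a library. Among the genes not called whose values are given by name here, apart from Cxcl1, 2 changed sign under an alternative. The log2 fold change of Il1b was −0.13 with the length trend removed and ranged from −0.33 to 1.21 with 1 library left out, below 0 without control library 1 or 3 or IC library 1 or 2. That of Sdc4 was −0.077 with the length trend removed and ranged from −0.046 to 0.31 with 1 library left out, below 0 without control library 1 or 3 or IC library 1. The depth of the IC libraries limits what can be seen at low levels. No gene was called under 1 CPM, and between 1 and 10 CPM 41 of the 56 lower calls had the IC group at the floor. Drawn down to equal depth, the IC libraries still had a count for fewer genes than the controls.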
